A study of Bos taurus with 6 samples.

Results

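The miRNAs described here are bta-miR-205 and bta-miR-375, which together with bta-miR-203 make up a set of 3 miRNAs known from epithelium. They were taken by name from the deposited table of counts, which has 706 rows, 359 for miRNAs known in Bos taurus and 347 for miRNAs that the authors predicted. Rows were found for 2 of the 3 names, and bta-miR-203 was not analysed here. Serum was collected on day 30 from 6 female Holstein cows in mid lactation. The control and tested groups had 3 cows each, and both received a total mixed ration (TMR). In the tested ration, part of the alfalfa hay gave way to whole cotton seed and soybean hull. Extracellular vesicles (EVs), the membrane-enclosed particles that cells release, were isolated from the serum of each cow, and a small RNA library was sequenced for each cow. A serum library mixes EVs of all the tissues that release them into blood, so fewer EVs from a tissue and less of a miRNA per EV cannot be told apart.

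A miRNA guides the silencing complex to messenger RNAs that pair with its seed, bases 2 to 8, and lowers their translation and stability. The miR-203 family is known from skin, where it restrains the growth of keratinocytes as they differentiate. The miR-205 family is found in basal cells of stratified and glandular epithelia, mammary gland included, where it represses ZEB1 and ZEB2, the repressors of the epithelial adhesion gene CDH1. The miR-375 family is best known from the pancreatic islet, where it shapes insulin secretion and beta cell mass, and is also found in pituitary and in epithelium of the gut. The wider list used as context holds 17 names, of which 12 had rows in the table. Besides bta-miR-205 and bta-miR-375 these are the 5 members of the miR-200 family (bta-miR-200a, bta-miR-200b, bta-miR-200c, bta-miR-141 and bta-miR-429), which also repress ZEB1 and ZEB2, the bta-miR-182, bta-miR-183 and bta-miR-96 group of sensory epithelium, and bta-miR-31 and bta-miR-184 of surface epithelia.

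The sequences of both miRNAs are shown because the seed decides which messenger RNAs each can pair with. They are written 5′ to 3′ with T for U, as the deposited table has them, and the capitals mark the seed.
bta-miR-205: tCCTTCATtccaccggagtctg
bta-miR-375: tTTTGTTCgttcggctcgcgtga
The listed bta-miR-205 is 22 nt long and bta-miR-375 is 23 nt long. Their seeds differ at 6 of 7 bases, and the longest run of bases that both share is 3 nt. No other miRNA of the table carried the seed of either one at bases 2 to 8, and 0 of the other listed sequences lay within 3 edits of them. The nearest to bta-miR-205 was the newly predicted novel274_mature, at 7 edits and named after its distance was seen, and the nearest to bta-miR-375 lay 10 edits away. In contrast, bta-miR-200b and bta-miR-200c differ from each other by 3 edits and share a seed. Counts of bta-miR-205 and bta-miR-375 therefore have no near-identical partner in the table with which reads could have been divided.

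In CG dinucleotides, bta-miR-375 stands apart from most of the table. It holds 4 of them, and 4 of the 359 known miRNAs hold that many or more, itself included, while 200 hold none. Its GC content is 52.2% and that of bta-miR-205 is 54.5%, against a median of 45.8% over the known miRNAs, and 127 and 106 of the 359 have a GC content as high or higher. Both had a gene by name in the RefSeq annotation of ARS-UCD2.0, a later assembly than the one used for the reads. MIR375 lies between CRYBA2, a lens crystallin gene, and CFAP65, a gene of motile cilia. MIR205 lies between CAMK1G, a calcium-dependent kinase gene, and the long non-coding RNA LOC104974529. No gene overlapped either one, and no other miRNA gene lay within 10 kb of them.

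The libraries held between 1277693 and 2176002 counts in all, of which 1226928 to 2088249 were on known miRNAs. Levels are given below as CPM, the counts scaled to a common total of known miRNA counts per library, with exact (Clopper-Pearson) 95% intervals that cover counting error only, since PCR copies are not independent molecules. The 2 miRNAs are compared with each other by their read counts, and any bias of adapter ligation for their sequences was not tested. Known miRNA counts were 8.50% to 18.0% of the clean reads. Of the marker lists for other cell types, the red blood cell miRNAs bta-miR-451, bta-miR-144 and bta-miR-486, all 3 in the table, differed most in percentage points. Their summed share of known miRNA counts ran from 1.35% to 2.84% over control cows and from 0.862% to 5.96% over tested cows. The 4 gut and liver miRNAs held 0.138% to 0.185% with the control diet and 0.146% to 0.231% with the tested diet. White blood cell miRNAs, 4 of 5 names in the table, stayed at or below 0.0439%. The pair of bta-miR-126 arms, from platelets and vessels, ran from 0.00106% to 0.00787% over control cows and from 0.00335% to 0.0166% over tested cows, and the muscle miRNAs, 5 of 6 names, stayed at or below 0.0178%. The part of these cell types in the results below was not tested.

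Expression of bta-miR-375 was high and present in every cow. The table holds 39891 counts of it over the 6 libraries, among 10731042 counts of known miRNAs. Its counts were 7173, 8891 and 7001 with the control diet, and 4709, 4705 and 7412 with the tested diet. As levels, the control cows had 4666, 4426 and 3517 CPM, with intervals of 4559 to 4775, 4335 to 4519 and 3436 to 3601 CPM. The tested cows had 3838, 2503 and 3549 CPM, with intervals of 3729 to 3949, 2433 to 2576 and 3469 to 3631 CPM. Control cows 1 and 2 were therefore the highest and tested cow 2 was the lowest. Control cow 3 lay among the tested cows, below tested cow 1 and within counting error of tested cow 3, so the groups overlapped on this scale. Between the highest and the lowest cow the level differed 1.86-fold. Counting error was between 1.06% and 1.46% of the count, far below the coefficients of variation between cows, 14.4% among control cows and 21.3% among tested cows.

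Expression of bta-miR-205 was low and uneven. Its counts were 33, 22 and 73 with the control diet and 47, 41 and 3 with the tested diet, 219 in all. The control cows had 21.5, 11.0 and 36.7 CPM, with intervals of 14.8 to 30.1, 6.86 to 16.6 and 28.7 to 46.1 CPM. The tested cows had 38.3, 21.8 and 1.44 CPM, with intervals of 28.1 to 50.9, 15.7 to 29.6 and 0.296 to 4.20 CPM. The highest and the lowest cow were both in the tested group, and the other cows of both groups were interleaved between them. Within the control group the intervals of cows 2 and 3 did not overlap, so these cows differed by more than counting error. Tested cow 3, with 3 counts, lay below the interval of every other cow.

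**Figure D1:**
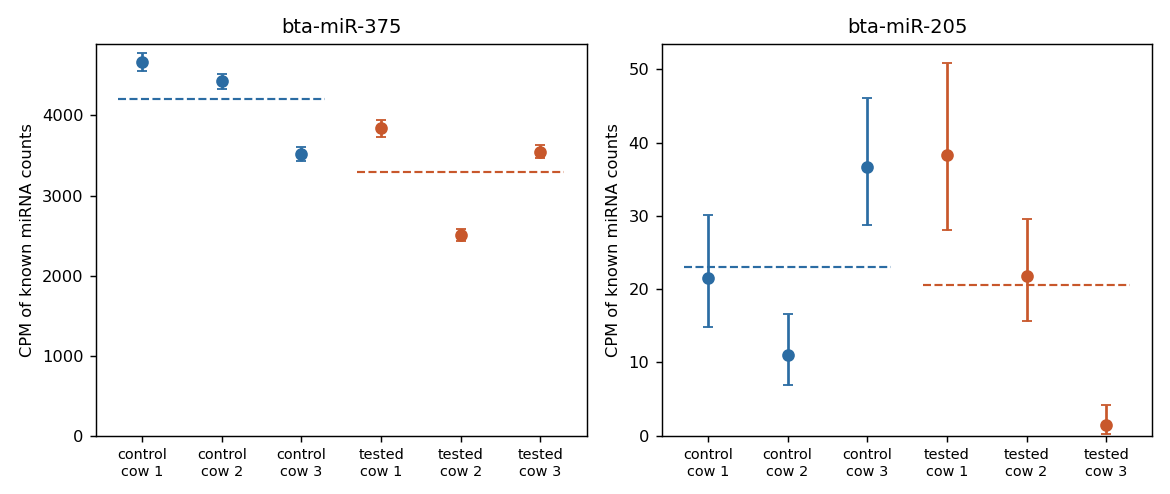
Level of bta-miR-375 (left) and bta-miR-205 (right) in serum EVs of each cow, in CPM of known miRNA counts. Points are cows, bars are exact 95% counting intervals and dashed lines are group means. The bta-miR-375 points lie between 2503 and 4666 CPM with short bars, and the bta-miR-205 points lie between 1.44 and 38.3 CPM with bars that are long beside the values.

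The spread between cows was also set beside that of the other known miRNAs. On the log2 CPM scale the SD over the 6 cows was 0.32 for bta-miR-375 and 1.77 for bta-miR-205. Among the 173 known miRNAs with a count in every library the median SD was 0.55. From the smallest SD, bta-miR-375 was at place 56 and bta-miR-205 at place 153 of the 173. The level of bta-miR-205 differed 26.7-fold between its highest and lowest cow. Both this range and its SD include tested cow 3, which had 3 counts and 1.44 CPM, while the other cows lay between 11.0 and 38.3 CPM.

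Within each cow, bta-miR-375 exceeded bta-miR-205 by at least 95.9-fold. With the control diet the ratio of their counts was 217, 404 and 95.9, and with the tested diet it was 100.2, 115 and 2471. Over the 6 cows the mean log2 ratio, with 0.5 added to the counts, was 7.91 ± 1.73 (SD, n = 6), and bta-miR-375 was higher in 6 of 6 cows (two-sided exact sign-flip test, p = 0.031, the smallest that 6 cows allow). The Benjamini-Hochberg adjusted p of this exact test was 0.0521 over the 5 pairs compared within cows. The highest ratio was that of tested cow 3, whose count of bta-miR-205 was 3. Control cows had a mean log2 ratio of 7.65 ± 1.03 and tested cows one of 8.17 ± 2.50 (SD, n = 3 each), and this difference of 0.52 was within the spread between cows (two-sided exact permutation test, p = 0.8). Without tested cow 3 the difference was -0.92.

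Among the 12 epithelial miRNAs of the table, bta-miR-375 stood at place 5 and bta-miR-205 at place 10 by mean level. At the top stood bta-miR-200c with a mean of 41328 CPM, and the level of bta-miR-375 was close to that of bta-miR-182, with means of 3750 and 3909 CPM. These neighbors could not be put in order. The log2 ratio of bta-miR-375 to bta-miR-182 was -0.08 ± 0.33 (SD, n = 6), between -0.57 and 0.31 over the cows, and bta-miR-375 was higher in 4 of 6 (exact sign-flip test, p = 0.656, adjusted p = 0.656). Against bta-miR-200b, the next in order below it, bta-miR-375 was higher in 6 of 6 cows, with a log2 ratio of 0.97 ± 0.39 (SD, n = 6, exact sign-flip test, p = 0.031, adjusted p = 0.0521).

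Between bta-miR-429, a member of the miR-200 family with 500.4 to 1042 CPM, and bta-miR-205 there was a wide gap. The log2 ratio of bta-miR-205 to bta-miR-429 was -5.48 ± 1.98 (SD, n = 6), and bta-miR-205 was higher in 0 of 6 cows (exact sign-flip test, p = 0.031, adjusted p = 0.0521). Over the cows this ratio ran from -9.28 in tested cow 3, with 3 counts of bta-miR-205, to -3.76. Below it, bta-miR-184 had 4, 61 and 0 counts with the control diet and 11, 28 and 0 with the tested diet, and bta-miR-31 had 0, 51 and 0 against 1, 0 and 38. Both were thus missing from some libraries of each group, whereas bta-miR-205 had counts in all 6. Against bta-miR-184, bta-miR-205 was higher in 5 of 6 cows (log2 ratio of 2.34 ± 2.89, SD, n = 6, exact sign-flip test, p = 0.0938, adjusted p = 0.117). In control cow 3 and tested cow 3, where bta-miR-184 had no count, this ratio rests on the 0.5 added to counts. The adjusted p was above 0.05 for every pair compared within cows. The neighbors were chosen by the order of these same levels.

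**Figure D2:**
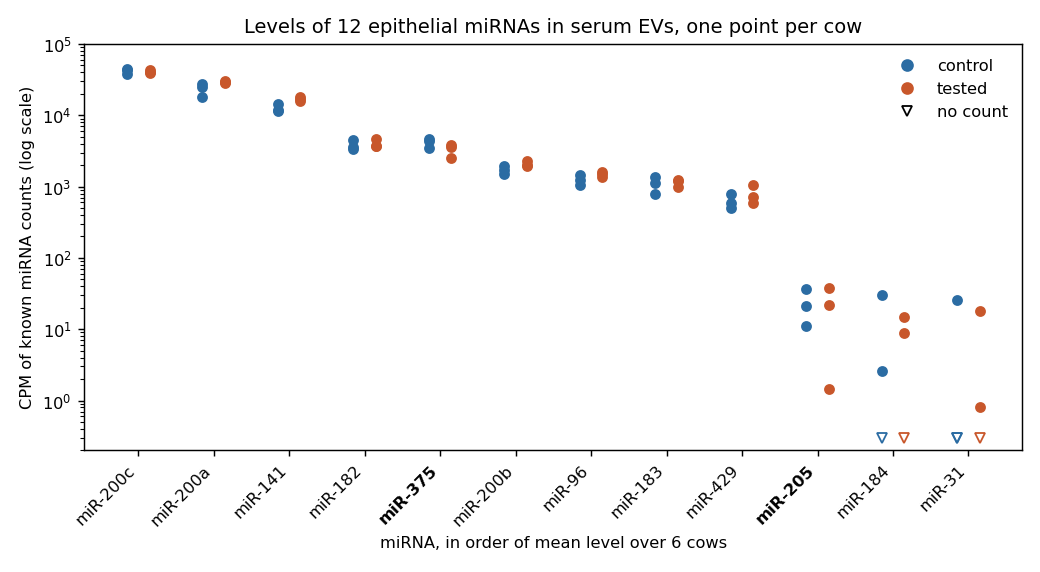
Levels of the 12 epithelial miRNAs of the table in each of the 6 cows, in CPM of known miRNA counts on a log axis, ordered by mean level. Points are cows by group and open triangles at the bottom are libraries with no count. Mean levels fall from 41328 CPM for bta-miR-200c to 703 CPM for bta-miR-429, and bta-miR-205, bta-miR-184 and bta-miR-31 lie below 40 CPM in every cow.

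By rank among the 359 known miRNAs of a library, with ties at their mean rank, bta-miR-375 held places 31, 30 and 32 with the control diet and places 33, 35 and 33 with the tested diet. It stood further down the order in each tested cow than in any control cow, a difference of mean ranks of 2.67 (exact permutation test, p = 0.1, the smallest that 3 cows against 3 allow). Of the 312 known miRNAs tested for a difference between the diets below, 3.21% were likewise further down in all 3 tested cows. For bta-miR-205 the ranks were 166.5, 186.5 and 130.5 with the control diet and 143, 155.5 and 216.5 with the tested diet (exact permutation test, p = 0.7). Its groups overlapped. The difference of its mean ranks, 10.5 places, became -4.83 without control cow 3 and -11.9 without tested cow 3.

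The comparison of the diets asks whether the tested feed changed the EV-miRNAs of serum. In CPM of known miRNA counts, bta-miR-375 averaged 4203 ± 606 with the control diet and 3297 ± 702 with the tested diet (SD, n = 3 each), a log2 ratio of -0.35 (exact permutation test, p = 0.3). For bta-miR-205 the means were 23.0 ± 12.9 and 20.5 ± 18.5 CPM (SD, n = 3 each), a log2 ratio of -0.17 (exact permutation test, p = 1). The sum of both, which is nearly all bta-miR-375, was 4226 ± 595 and 3317 ± 705 CPM (SD, n = 3 each, exact permutation test, p = 0.2). In all 3 of these comparisons the groups overlapped. Without tested cow 2, the log2 ratio was -0.19 both for bta-miR-375 and for the sum. The log2 ratio of bta-miR-205 was -0.65 with clean reads as the total and -0.74 as a difference of mean log2(CPM + 1), and it was 0.34 without control cow 3 and 0.38 without tested cow 3. Leaving out any other cow gave values from -0.99 to -0.21.

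The quasi-likelihood test of edgeR was fitted to the 623 miRNAs with 10 or more counts over all libraries, and both miRNAs passed this filter. A miRNA was called at the threshold printed above the heat map of the study (p below 0.05 before adjustment and a log2 fold change beyond 1 in either direction), and 3.21% of the 623 were called. Of bta-miR-205 and bta-miR-375, 0 were called. Before adjustment 4.65% of the 623 had a p below 0.05, and 0 of these 2 miRNAs did. For bta-miR-375 the fitted log2 fold change was -0.41 ± 0.221 (standard error, 95% interval -0.89 to 0.07), with a p of 0.0855 before adjustment and an adjusted p of 0.448 from edgeR. This interval includes no change. For bta-miR-205 it was -0.22 ± 1.45 (standard error, 95% interval -3.36 to 2.93, adjusted p of 0.987 from edgeR). This interval includes large changes in both directions, so a difference was not detectable in these 6 libraries. Its direction was not stable, since the log2 fold change was 0.38 without control cow 3 and 0.35 without tested cow 3. DESeq2, which called 4.26% of the miRNAs it tested, and limma, which called 5.46%, also called 0 of these 2. For bta-miR-375 their p-values before adjustment were 0.0589 and 0.383, with adjusted p of 0.740 from DESeq2 and 0.856 from limma.

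The level of bta-miR-375 was lower in the tested group on each scale examined, and whether the groups overlapped depended on the scale. Scaled by TMM, the per-library factor of edgeR, it was 4350, 4307 and 3747 CPM of all counts with the control diet and 3668, 2547 and 3116 CPM with the tested diet. All 3 tested cows then lay below all 3 control cows (exact permutation test, p = 0.1), as 2.73% of the 623 miRNAs did. A miRNA with no count in a control cow could not meet this on any scale of level or share used here. Of the 706 rows, 298 had a count in every library. The groups came closest at control cow 3 and tested cow 1.

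On the authors' RPM scale of clean reads, bta-miR-375 was at 503, 695 and 634 RPM with the control diet and at 326, 390 and 306 RPM with the tested diet. Again the tested cows all lay below the control cows (611 ± 98.4 against 341 ± 43.8 RPM, SD, n = 3 each, exact permutation test, p = 0.1), as were 4.17% of the 312 known miRNAs tested. In CPM of known counts, where bta-miR-375 overlapped, this held for 2.24% of them. The share of clean reads that fell on known miRNAs was 14.8% ± 3.70 with the control diet and 10.9% ± 4.06 with the tested diet (SD, n = 3 each, exact permutation test, p = 0.2), which moves most miRNAs down in the tested group on the clean-read scale. Over the 133 known miRNAs with at least 10 counts in every library, the median log2 ratio of group means was 0.09 in CPM of known counts and -0.37 in RPM of clean reads. Relative to that median, bta-miR-375 was at -0.44 and -0.47. Of the 133 miRNAs, 15 and 12 had a log2 ratio as low as or lower than that of bta-miR-375, itself included.

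**Figure D3:**
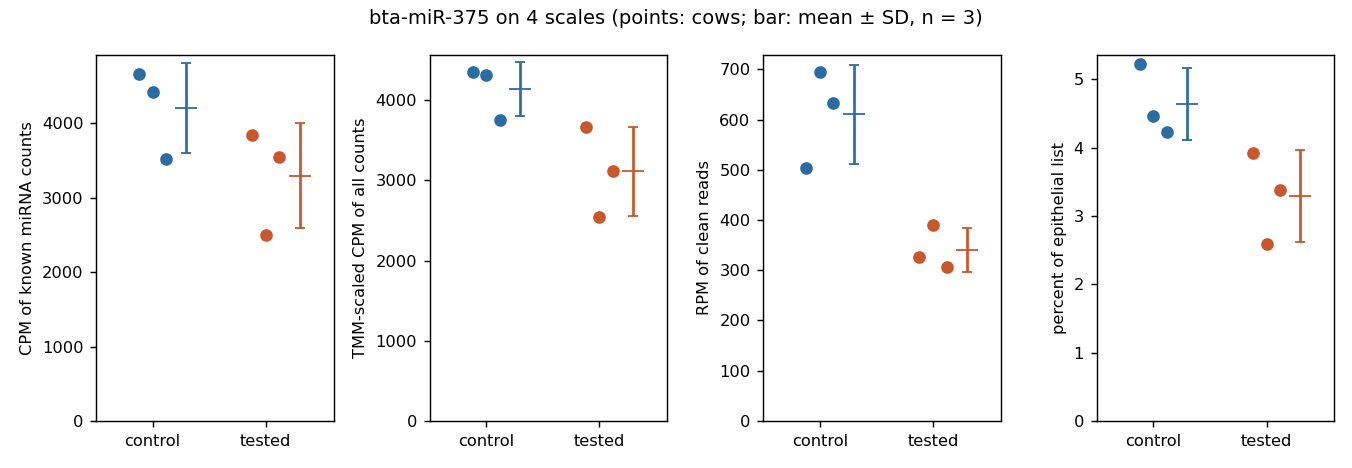
Level of bta-miR-375 in the 3 control and 3 tested cows on 4 scales, from left to right CPM of known miRNA counts, TMM-scaled CPM of all counts, RPM of clean reads and percent of the summed counts of 12 epithelial miRNAs. Points are cows and bars are means with SD. The groups overlap on the first scale and lie apart on the other 3, with all tested cows lower.

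The direction of the summed level of the epithelial miRNAs depended on the scale. Together the 12 of the list held 9.06% ± 0.817 of known miRNA counts with the control diet and 9.99% ± 0.440 with the tested diet (SD, n = 3 each, exact permutation test, p = 0.3). Of the clean reads they held 1.34% ± 0.329 against 1.08% ± 0.372 (SD, n = 3 each, exact permutation test, p = 0.3), and the groups overlapped on both scales. Of known miRNA counts, the miR-200 family alone held 8.02% ± 0.770 and 8.99% ± 0.346 (SD, n = 3 each, exact permutation test, p = 0.3). Of the 12, 0 were called by edgeR, 0 by DESeq2 and 0 by limma at the threshold of the study, which 3.21%, 4.26% and 5.46% of all miRNAs tested passed. Before adjustment, 1 of them had a p below 0.05 in edgeR, as 4.65% of all miRNAs did. This was bta-miR-141, whose log2 fold change was 0.37 (95% interval 0.03 to 0.70, p of 0.0346 before adjustment, adjusted p of 0.448 from edgeR). The fitted log2 fold change was above 0 for 7 and below 0 for 5, with a median of 0.02 against 0.07 over all 623 miRNAs. The 5 below 0 were bta-miR-375, bta-miR-205, bta-miR-31 (-0.55), bta-miR-184 (-0.43) and bta-miR-200c (-0.10), and 95% intervals of all 5 included 0.

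**Figure D4:**
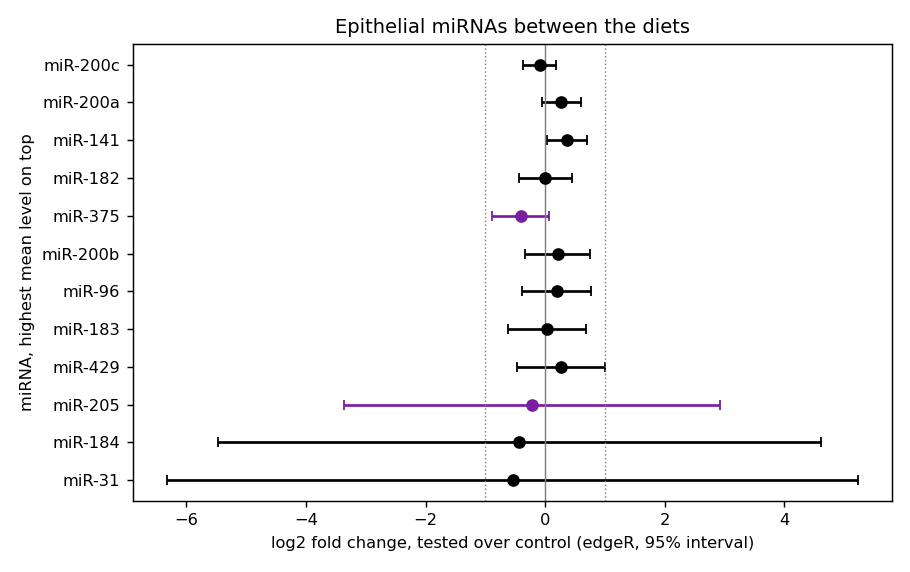
Log2 fold change of the 12 epithelial miRNAs between the diets from edgeR, tested over control, with 95% intervals. The solid line marks no change and the dotted lines mark the fold change threshold of the study, 1 on the log2 scale. Only the interval of bta-miR-141, 0.03 to 0.70, leaves out 0 among these 12, and that of bta-miR-205 spans -3.36 to 2.93.

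As a share of the 12 epithelial miRNAs, bta-miR-375 made up 5.23%, 4.46% and 4.23% with the control diet and 3.92%, 2.58% and 3.38% with the tested diet. The groups did not overlap on this measure, which is free of the library total (4.64% ± 0.523 against 3.30% ± 0.672, SD, n = 3 each, exact permutation test, p = 0.1). Of the 312 known miRNAs tested, 6.09% were likewise lower in every tested cow when divided by the same epithelial total. With the miR-200 family taken out of the list, its share was 40.4% ± 1.82 against 33.0% ± 5.56 (SD, n = 3 each), and the groups overlapped (exact permutation test, p = 0.2). Among the 12, bta-miR-205 made up 0.0264% ± 0.0167 against 0.0210% ± 0.0189 (SD, n = 3 each), with overlapping groups (exact permutation test, p = 0.7).

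Taken against single epithelial miRNAs, the ratio of bta-miR-375 was lower in the tested group for each of the 8 with at least 10 counts in every library, and these 8 ratios share the counts of bta-miR-375. The difference of the mean log2 ratio ran from -0.79 against bta-miR-141 to -0.33 against bta-miR-200c. Control and tested cows were apart for 5 of the 8, bta-miR-141, bta-miR-200a, bta-miR-429, bta-miR-200b and bta-miR-96 (exact permutation test, p = 0.1 for each), as in 5.43% of all ratios of a known miRNA to 1 of these 8. They overlapped for bta-miR-200c, bta-miR-182 and bta-miR-183.

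Since miR-375 is also an islet miRNA, it was set beside the islet and neuroendocrine names of the second list, of which 4 of 6 had rows, bta-miR-124a and bta-miR-124b in a single joint row. The islet miRNA bta-miR-7 was at 121, 41.3 and 107 CPM with the control diet and at 120, 64.9 and 115 CPM with the tested diet. It was lowest in the second cow of each group and its log2 fold change was 0.08 (95% interval -1.44 to 1.59, adjusted p of 0.987 from edgeR). The neural bta-miR-9-5p had counts in 1 control cow and 1 tested cow and was at 0 in the other 4. The neural bta-miR-124a and bta-miR-124b together had 1, 3 and 25 counts with the control diet and 3, 3 and 9 with the tested diet, and their log2 fold change was -0.97 (adjusted p of 0.962 from edgeR). Levels of bta-miR-375 therefore exceeded those of these miRNAs in every cow.

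The miRNAs whose pattern over the cows was most like that of each miRNA were found by an SD over the 6 libraries. It is the SD of the log2 ratio of their counts, which is small where both rise and fall together or where neither varies much. This describes 6 libraries and says nothing of shared control. For bta-miR-375 the closest of 132 known miRNAs were bta-miR-423-5p with an SD of 0.17, bta-miR-320a with 0.21 and bta-miR-92a with 0.22, against a median of 0.51. The SD spans both groups, so a shared difference between the diets counts as likeness. All 3 also had a fitted log2 fold change below 0, at -0.27, -0.22 and -0.47 (adjusted p of 0.568, 0.717 and 0.448 from edgeR). All 3 are abundant, with lowest levels of 16129, 3681 and 7793 CPM over the cows. Their sequences are shown to compare them with bta-miR-375 above, with the seeds in capitals.
bta-miR-423-5p: tGAGGGGCagagagcgagacttt
bta-miR-320a: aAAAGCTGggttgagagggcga
bta-miR-92a: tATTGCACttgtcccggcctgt
Their seeds differ from that of bta-miR-375 at 5, 5 and 3 of 7 bases. Their GC contents, 56.5%, 54.5% and 54.5%, are likewise above the median of 45.8%, and each holds 1 CG dinucleotide. Of the 359 known miRNAs, 106 have a GC content of 54.5% or more and 159 hold at least 1 CG dinucleotide.

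For bta-miR-205 the closest of 133 known miRNAs were bta-miR-23b-3p with an SD of 0.94, bta-miR-148b with 1.07 and bta-miR-144, a red blood cell miRNA, with 1.13, against a median of 1.75. These values are large on a log2 scale, so none of the 133 compared followed bta-miR-205 closely over the cows. The count of 3 in tested cow 3 enters every one of them.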

How the data were processed

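Small RNAs of serum EVs from 6 cows, 1 library each, were analysed, and no library was left out. The authors isolated EVs with an affinity column, kept reads of 15 to 41 nt, matched them to the bovine genome (ARS-UCD1.2), removed other RNA classes and took known miRNAs from miRBase. The submitters' processing notes name cutadapt 1.14 and Bowtie; the counting tool is not given in the sources used here. The deposited counts are whole numbers without normalization. The authors also deposited RPM values, labelled TPM, which equal the count divided by the clean reads of the library. The columns of the authors' own comparison (fold changes, p-values) and their table of called miRNAs were not used.

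Counts were tested with R 4.3.3 and edgeR 4.0.16 (TMM, glmQLFit, glmQLFTest) on miRNAs with a summed count of at least 10, with Benjamini-Hochberg adjustment over all miRNAs tested. Intervals of log2 fold changes used the standard error implied by the F statistic. Levels, ranks and shares were compared by two-sided exact permutation tests in SciPy 1.17.1 (Python 3.11.15, pandas 2.3.3, NumPy 2.4.6), and Matplotlib 3.10.9 drew the plots. Alternatives were DESeq2 1.42.0, limma 3.58.1 on log2(CPM + 1), other factors, filters, totals and added counts, the replicate number as a block, and each library left out. The fits were also run on simulated counts, whose set changes were all larger than those fitted for bta-miR-375 and bta-miR-205. That check therefore says nothing of changes as small as theirs. Depth was 1277693 to 2176002 counts per library, so counting error is small for bta-miR-375 and large for bta-miR-205.

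The miRNAs and lists were chosen with earlier results of these data known. Named are the 2 miRNAs, members of the epithelial and islet lists, the red blood cell markers and the bta-miR-126 arms (named after their values were seen), miRNAs that share a seed or lie within 3 edits, and the 3 known miRNAs most alike in pattern to each. Hairpin sequences were not used here. For the list names bta-miR-203, bta-miR-34b, bta-miR-34c, bta-miR-449a, bta-miR-449b, bta-miR-129-5p, bta-miR-129-3p, bta-miR-208b and bta-miR-142-3p no row was analysed.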

Additional observations from a re-analysis of the deposited data

How the results depend on the processing

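For bta-miR-375, the edgeR log2 fold change stayed below 0 and short of the threshold in all 16 alternatives, from -0.55 to -0.29 with adjusted p of 0.397 to 0.903, and its unadjusted p fell below 0.05 in 2 of them, with filterByExpr (0.0493) and without tested cow 1 (0.0434). For bta-miR-205 the direction was set by single cows. Without control cow 3 and without tested cow 3, its log2 fold change was 0.38 and 0.35, the log2 ratio of its group mean levels 0.34 and 0.38, the difference of its mean ranks -4.83 and -11.9, and the difference between groups of the log2 ratio of bta-miR-375 to bta-miR-205 -0.02 and -0.92. Without tested cow 1 these last values were 24.8 places and 1.29. With any 1 cow left out, the log2 fold change of bta-miR-205 ranged from -0.99 to 0.38, and the mean log2 ratio of bta-miR-375 to bta-miR-205 ranged from 7.28 to 8.17, where p was 0.0625 in each case, the smallest that 5 cows allow in the exact sign-flip test. Deviations of same-numbered cows from their group means correlated over 193 miRNAs at 0.170, -0.328 and -0.165. Those of differently numbered cows ran from -0.363 to 0.519. With 3 cows per group, these values cannot decide whether the numbers pair the cows. With the replicate number as a block, the log2 fold change was -0.42 for bta-miR-375 and -0.45 for bta-miR-205, and neither was called. In no alternative was a member of the epithelial list called. Of 100 recomputed values of 10 results with a direction, 92 kept it and 8 reversed. Permutation tests of 3 cows against 3 or fewer cannot pass 0.05, so for levels, ranks and shares the direction alone was followed.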
